A study of Mus musculus with 2 samples.

Results

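A set of 9 genes that encode the killing machinery of cytotoxic lymphocytes was followed here by symbol in both expression matrices: Gzma, Gzmb, Gzmk, Prf1, Nkg7, Fasl, Tnfsf10, Klrk1 and Klrd1, which are 9 of the 32285 genes listed. They were picked by name, with earlier results of these data known. Each was described in natural killer (NK), CD8 T, CD4 T and other lung cells of saline-treated and nanoparticle-treated mice. All 9 were found in the GENCODE M21 annotation of the GRCm38 mouse genome, where each is a protein-coding gene. Gzma lies at chr13:113093825-113100981 on the minus strand beside Gzmk at chr13:113171608-113225908, also on the minus strand. Klrd1 at chr6:129591782-129598775 on the plus strand and Klrk1 at chr6:129610323-129623864 on the minus strand are neighbours as well. Gzmb lies at chr14:56258838-56262260 and Fasl at chr1:161780689-161788495, both on the minus strand. Prf1 at chr10:61297833-61304680, Nkg7 at chr7:43437073-43438249 and Tnfsf10 at chr3:27317028-27342427 are on the plus strand.

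The cells came from lungs of female BALB/cJ mice aged 12 weeks bearing tumors of 4T1, a triple-negative breast cancer line known to seed the lung. Each mouse received 100000 tumor cells in the mammary fat pad and was then given intravenous saline or nanoparticles (NPs) of the polymer poly(lactide-co-glycolide) (PLG) without a drug load, every 3 days from 1 day after inoculation, 5 doses in all. At 14 days lungs were pooled within a condition, from 4 mice by the labels, depleted of red blood cells and sequenced as 1 droplet library per condition. No tumor-free group was analysed here, so both groups describe tumor-bearing lungs. With 1 library per group no difference between conditions could be tested, and no library or mouse spread exists to set a difference against. The intervals given are exact 95% intervals that cover counting error only.

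Cytotoxic lymphocytes kill by releasing granules onto a target cell. Perforin opens the target's membrane, granzymes then enter and cut proteins inside it, and Nkg7 is a granule membrane protein involved in granule release. A separate route uses the surface ligands Fasl and Tnfsf10 (TRAIL), which engage death receptors on the target. Klrk1 encodes NKG2D, an activating receptor for stress-induced ligands, and Klrd1 encodes CD94, which pairs with NKG2 chains to read the nonclassical class I molecule Qa-1. NK cells are the textbook holders of a preformed granule store, whereas T cells build one after activation.

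The sequences upstream of 3 granule genes and of Tnfsf10 are shown because these genes were detected in different cells. They are the bases before the start of the RefSeq gene on GRCm38.p6, written 5′ to 3′ along the gene's strand, with bases inside the GENCODE gene left out. Capitals mark matches, on both strands, to the RUNX letters TGTGGT, the T-box letters GGTGTG, the ETS letters GGAAGT or the IRF letters GAAA, 2 bases of any kind and GAAA again. The Gzma sequence is chr13:113100982-113101231 on the minus strand, the Gzmb sequence chr14:56262335-56262584 on the minus strand, the Prf1 sequence chr10:61297586-61297832 on the plus strand and the Tnfsf10 sequence chr3:27316827-27317027 on the plus strand.
Gzma: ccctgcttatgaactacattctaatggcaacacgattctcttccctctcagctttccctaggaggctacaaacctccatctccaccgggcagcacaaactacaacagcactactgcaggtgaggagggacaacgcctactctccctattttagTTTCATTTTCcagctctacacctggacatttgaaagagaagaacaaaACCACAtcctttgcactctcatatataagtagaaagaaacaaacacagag
Gzmb: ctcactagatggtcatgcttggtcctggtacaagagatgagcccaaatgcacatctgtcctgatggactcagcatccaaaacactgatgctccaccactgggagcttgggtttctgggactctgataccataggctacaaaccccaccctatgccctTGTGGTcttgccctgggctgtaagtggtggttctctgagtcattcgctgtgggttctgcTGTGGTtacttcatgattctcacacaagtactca
Prf1: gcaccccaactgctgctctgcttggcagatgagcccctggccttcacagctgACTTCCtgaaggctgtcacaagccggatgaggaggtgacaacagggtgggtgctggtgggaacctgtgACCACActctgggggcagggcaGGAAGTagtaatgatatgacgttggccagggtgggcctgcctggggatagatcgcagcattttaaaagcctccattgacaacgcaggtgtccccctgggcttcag
Tnfsf10: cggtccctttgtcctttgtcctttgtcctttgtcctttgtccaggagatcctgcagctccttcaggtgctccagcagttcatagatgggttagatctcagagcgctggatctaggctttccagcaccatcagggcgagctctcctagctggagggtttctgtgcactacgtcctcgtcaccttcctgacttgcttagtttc

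Gzma had 1 RUNX match and 1 IRF match, Gzmb had 2 RUNX matches, and Prf1 had 1 RUNX and 2 ETS matches. The Tnfsf10 stretch, at 201 bases the shortest shown, held none of these letters. Among genes not shown, Fasl had 0 RUNX, 1 T-box and 1 ETS match, and Klrk1 and Nkg7 had 1 RUNX match each. Over all 32851 RefSeq promoters, 14.0% held the RUNX letters, 16.3% the T-box letters, 19.7% the ETS letters and 2.98% the IRF letters. A match describes the letters and is not evidence of binding.

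The saline library held 8662 cells and the NP library 8333 cells with 500 to 5000 detected genes and mitochondrial transcripts under 7.5% of unique molecular identifiers (UMIs, each standing for 1 captured transcript), and 21 cell barcodes occurred in both. Cells were clustered without the 9 genes and named from other markers, so each class is called "-like", and differences from the study's own cell types may come from these rebuilt names. The NK-like class had 127 saline and 139 NP cells, or 1.47% and 1.67% of all cells. Of these, 99.2% and 100% held a UMI of the NK receptor Ncr1, 0 and 2 cells held the T cell gene Cd3e, and 15 of 17 NK markers were found in each library. The CD8 T-like class had 85 saline and 60 NP cells (0.981% and 0.720%), with Cd8b1 in 96.5% and 98.3% of them and Cd4 in none. The CD4 T-like class had 278 and 202 cells (3.21% and 2.42%), with Cd4 in 139 and 111 of them. A mixed T sub-cluster of 49 saline and 74 NP cells and a T sub-cluster carrying genes of other classes, of 56 and 43 cells, were kept out of the CD8 and CD4 classes by thresholds set after seeing the data. They made up 0.566% and 0.888%, and 0.647% and 0.516%, of all cells.

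Most UMIs of 7 of the 9 genes lay in NK-like cells in both libraries. NK-like cells held 96.1% of saline and 93.3% of NP Gzma UMIs, 86.4% and 92.7% of Prf1 UMIs, 74.4% and 78.5% of Nkg7 UMIs, and 82.7% and 80.9% of Fasl UMIs. For the receptors, the NK share was 72.7% and 72.3% for Klrd1 but 72.3% and 52.1% for Klrk1, while the monocyte-like share of Klrk1 was 9.70% and 27.7%. The NK share of Gzmb UMIs was 88.1% in saline and 64.2% in NP lungs, where basophil or mast cell-like cells held 28.0%, mostly in a single cell described with the basophils. Tnfsf10 was the exception, with 76.1% and 83.0% of its UMIs in endothelial-like cells. Gzmk was rare throughout, with 22 saline and 23 NP UMIs in all cells.

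**Figure D1:**
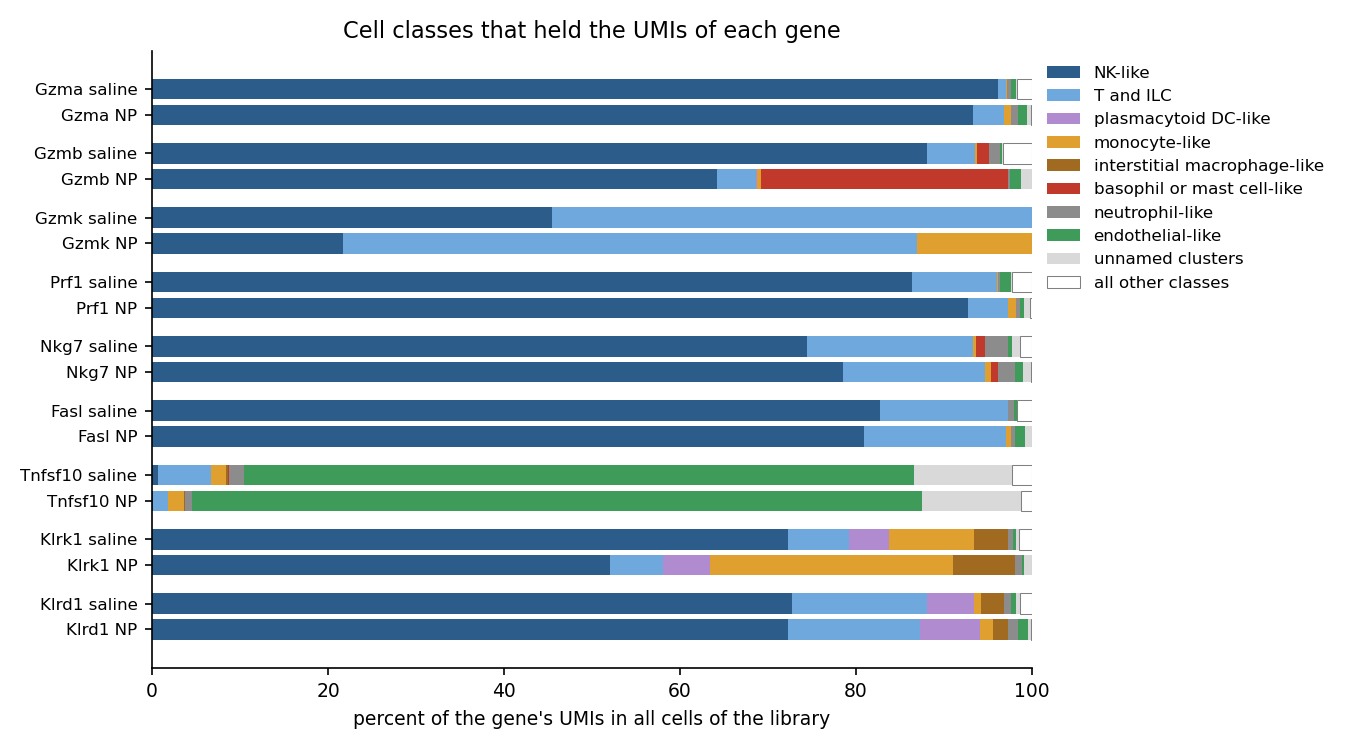
Bars split the UMIs of each gene in each library by the cell class that held them, as percent of the gene's UMIs in all cells. NK-like cells (dark blue) held 96.1% and 93.3% of Gzma UMIs, endothelial-like cells (green) held 76.1% and 83.0% of Tnfsf10 UMIs, and the Gzmk bars rest on 22 and 23 UMIs.

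**Figure D2:**
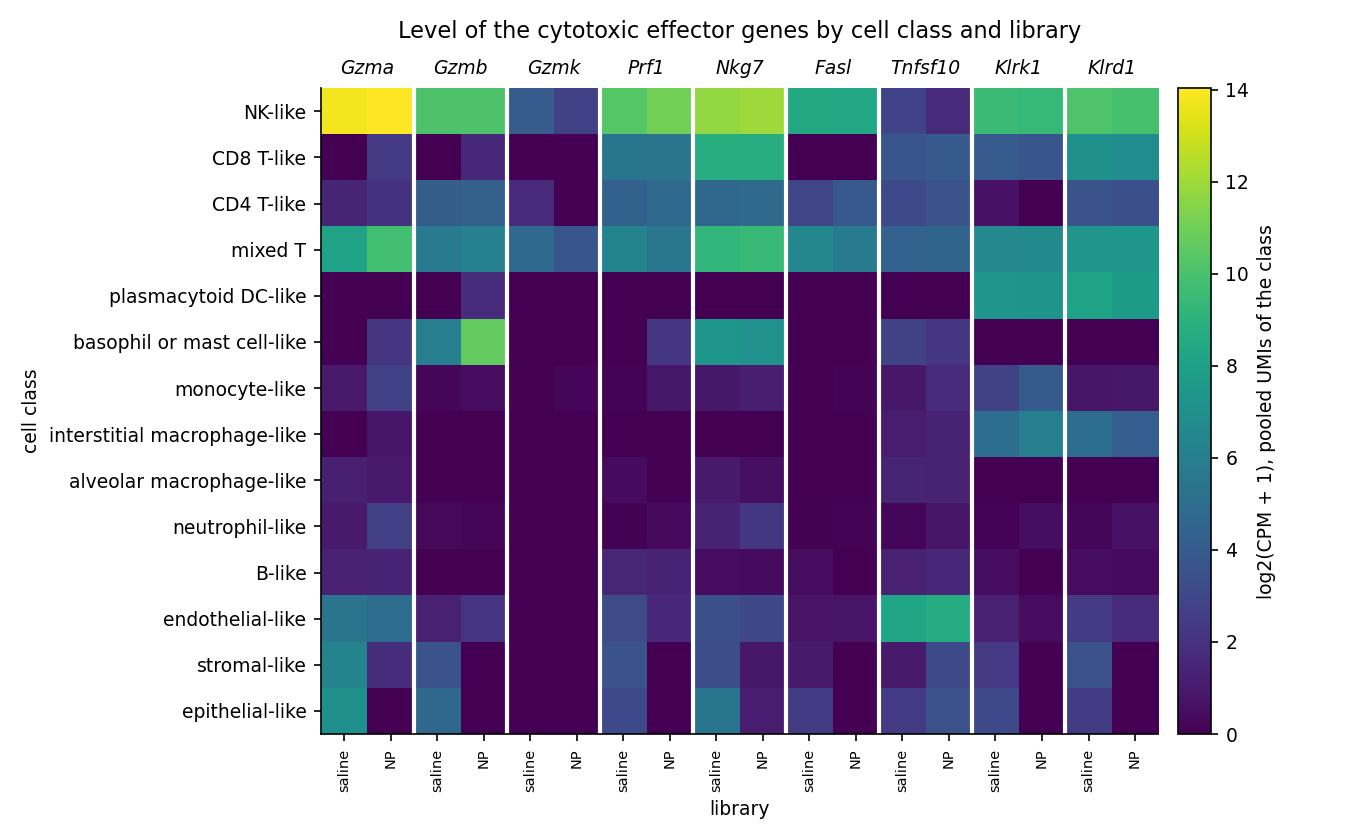
Color gives log2(CPM + 1), where CPM is a gene's UMIs scaled to the total UMIs pooled over a class, for each gene (columns, with the saline and NP library side by side) and cell class (horizontal bands). The NK-like band was high for Gzma, Gzmb, Prf1, Nkg7, Fasl, Klrk1 and Klrd1, the endothelial-like band for Tnfsf10, and the plasmacytoid DC-like band for Klrk1 and Klrd1 only.

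In NK-like cells the granule genes were abundant under both treatments, and Prf1 had the highest NP to saline ratio of the 7 genes measured. Levels are given as CPM, counts of a gene scaled to the total UMIs of the pooled class. Prf1, the pore-forming protein, had 845 UMIs (1274 CPM) in saline and 1850 UMIs (2074 CPM) in NP cells, a log2 ratio of 0.70 (interval 0.58 to 0.82), or 1.63-fold. The shift was seen over the range of cells and not in a few: the median cell had 1220 CPM in saline and 1856 CPM in NP cells, the upper quartile 1917 and 3071 CPM, and the 90th percentile 2599 and 4330 CPM. Without the highest cell of each library the Prf1 log2 ratio was 0.72. Neutrophil marker RNA in the NK-like class also differed, with 13 of 13 markers found in both libraries at a summed 13110 CPM in saline and 20568 CPM in NP cells. With called doublets removed the Prf1 log2 ratio was 0.74. The caller marked 1 saline and 311 NP cells over all classes, so this removal touched almost only the NP library and is no check of the ratio. Subtraction of free RNA, scaled to the neutrophil genes S100a8 and S100a9 of the class, was among the settings tried. Over all of those settings the Prf1 log2 ratio lay between 0.41 and 0.85. What part of it the neutrophil RNA made up was not tested. NK-like cells of the NP library were deeper, with a median of 5544 UMIs per cell against 4415. After every cell was thinned to 1000 UMIs, in 1 random draw, the Prf1 log2 ratio was 0.41. Without thinning, the mean Prf1 CPM over cells was 1382 in saline and 2217 in NP cells. The share of cells with a Prf1 UMI was 97.6% and 100% before thinning and 74.0% and 74.8% after it, beside 1.08% and 0.842% of B-like cells (medians of 4332 and 4427 UMIs), which should lack the gene.

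Gzma, a tryptase-like granzyme, had 9467 saline UMIs (14276 CPM) and 14944 NP UMIs (16755 CPM), a log2 ratio of 0.23 (0.19 to 0.27). The median cell held 15636 CPM in saline and 19088 CPM in NP lungs. Nkg7 stood at 3399 CPM (2254 UMIs) and 4018 CPM (3584 UMIs), a log2 ratio of 0.24 (0.17 to 0.32), and was found in every NK-like cell of both libraries. Gzmb, the granzyme that activates caspases, was level at 1107 CPM (734 UMIs) and 1118 CPM (997 UMIs), a log2 ratio of 0.01 (-0.12 to 0.15). It was also uneven between cells: 89.0% and 87.8% held it, and the tenth of cells with the most held 34.9% and 31.9% of its UMIs, against 21.3% and 18.7% for Gzma. Gzmk had 10 UMIs in saline and 5 in NP NK-like cells, too few for a ratio.

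**Figure D3:**
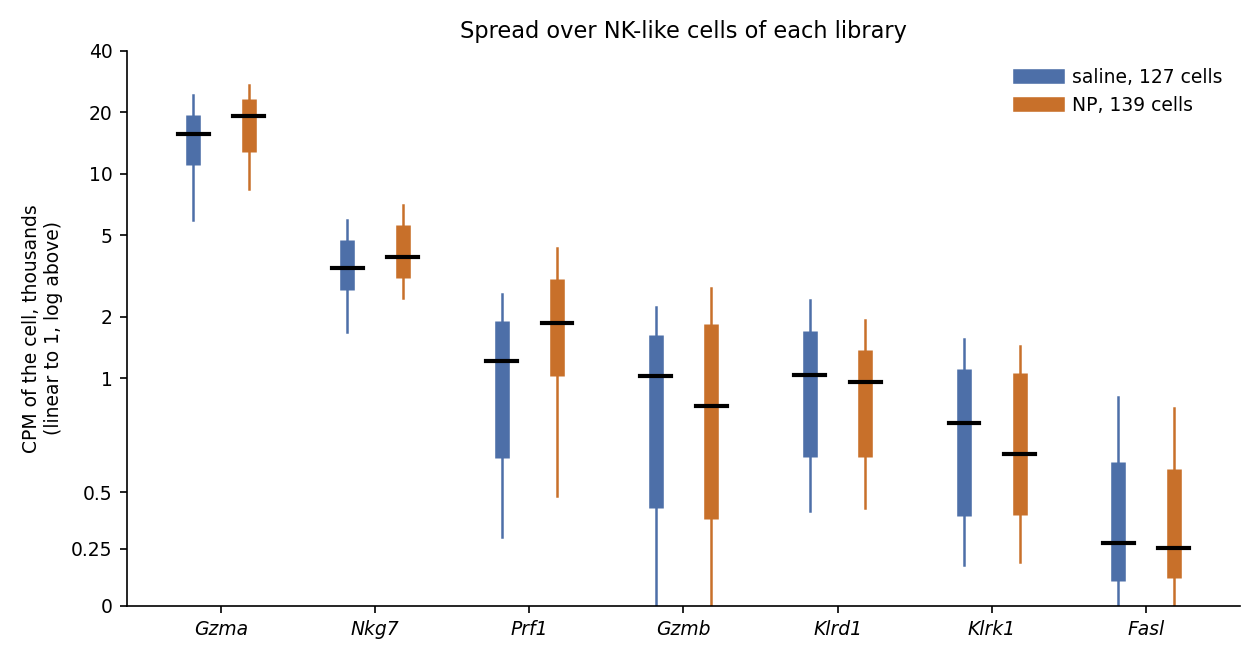
CPM of single NK-like cells, divided by 1000 (axis linear to 1 and log above), for 7 genes, with the median (black line), the middle 50% of cells (thick bar) and the 10th to 90th percentile (thin line) in 127 saline and 139 NP cells. The NP bar sat higher for Prf1, with medians of 1220 and 1856 CPM, while the Gzmb, Klrd1, Klrk1 and Fasl bars of the libraries covered each other.

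The death ligands and receptors of NK-like cells were at like or lower levels in the NP library. Fasl had 239 saline UMIs (360.4 CPM) and 301 NP UMIs (337.5 CPM), a log2 ratio of -0.09 (-0.34 to 0.16). Klrk1 had 507 UMIs (765 CPM) and 607 UMIs (681 CPM), a log2 ratio of -0.17 (-0.34 to 0.01). Klrd1 was lower in the NP library, with 774 UMIs (1167 CPM) and 889 UMIs (997 CPM), a log2 ratio of -0.23 (-0.37 to -0.09). Over the settings tried, the log2 ratio ranged from -0.26 to -0.084 for Klrd1, from -0.19 to -0.024 for Klrk1 and from -0.12 to 0.047 for Fasl. Tnfsf10 was nearly absent, at 4 and 2 UMIs. Among the 7 genes with at least 20 UMIs over both libraries, 0 differed 2-fold, where 2.47% of the 6935 genes measured in NK-like cells were at least 2-fold higher and 3.45% at least 2-fold lower in the NP library. The counting interval lay above 0 for Prf1, Gzma and Nkg7 and below 0 for Klrd1, where 5.03% and 7.76% of all genes measured had such intervals. The interval narrows as UMIs rise, and most genes measured had fewer UMIs than these. The median log2 ratio was 0.01 over the 7 genes and -0.06 over all genes measured.

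**Figure D4:**
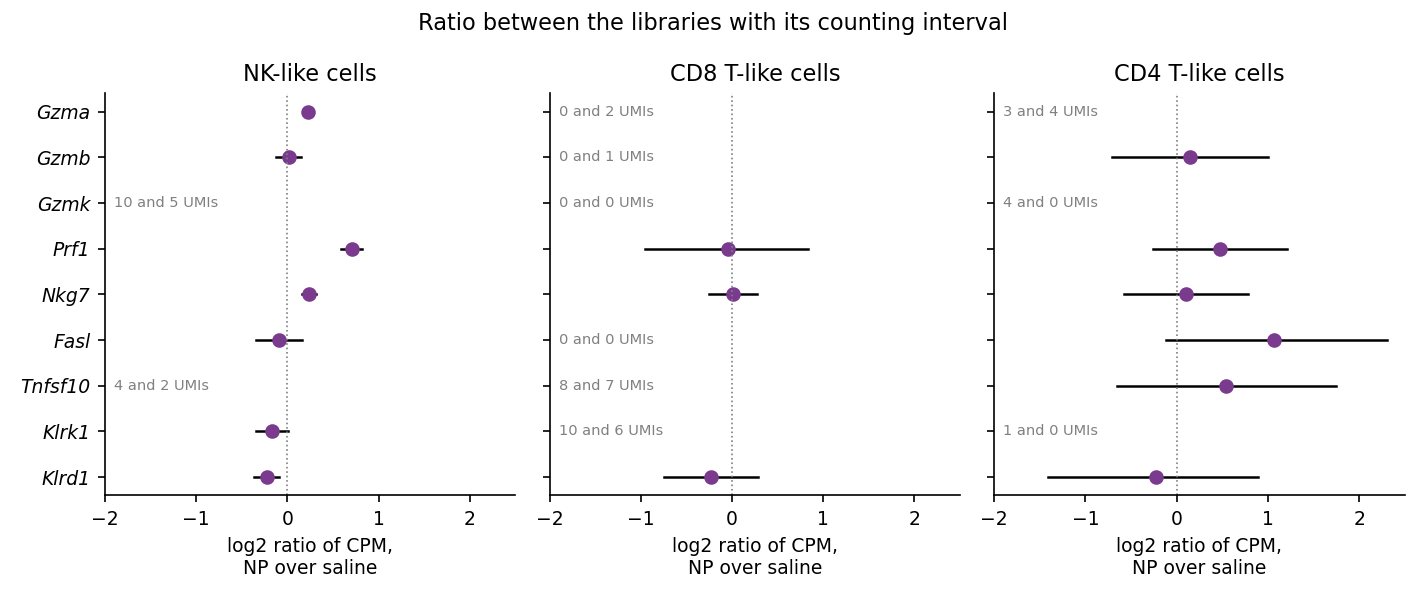
Points give the log2 ratio of CPM, NP over saline, and lines its 95% counting interval for genes with at least 20 UMIs over both libraries in NK-like, CD8 T-like and CD4 T-like cells, and gray text gives saline and NP UMIs of the others. In NK-like cells Prf1 stood at 0.70 and Klrd1 at -0.23, and in the T-like classes every interval spanned 0.

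The granule genes were found together in single NK-like cells under both treatments. At 1000 UMIs per cell, Gzma, Gzmb, Prf1 and Nkg7 were all present in 44.9% (36.1% to 54.0%) and 43.2% (34.8% to 51.8%) of the saline and NP cells, and before thinning in 87.4% and 87.1%. After thinning 96.1% and 95.7% of cells held 3 or more of the 9 genes, and the mean was 4.79 and 4.74. Gzma without Gzmb was found in 41.7% and 44.6% of thinned cells and Gzmb without Gzma in 0 of 127 and 0 of 139. Before thinning, 0 saline cells and 1 NP cell held Gzmb without Gzma.

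Of 42 other genes of the cytotoxic pathway, 26 had at least 20 UMIs in NK-like cells. None was 2-fold higher and 1 was 2-fold lower with an interval that excluded 0, with a median log2 ratio of -0.08. Over all genes measured in NK-like cells, 2.47% were at least 2-fold higher and 3.45% lower, counted without the interval. The lower gene was Lamp1, a lysosomal membrane protein that marks released granules, at 132.7 CPM (88 UMIs) in saline and 58.3 CPM (52 UMIs) in NP cells, a log2 ratio of -1.19 (-1.71 to -0.68). A single saline cell held 23 of its 88 UMIs, and without the highest cell of each library the log2 ratio was -0.87 (-1.43 to -0.31), short of 2-fold. Smaller ratios above 0 were measured for Serpinb9b, a relative of the granzyme B inhibitor Serpinb9, at 276 and 462 CPM (log2 ratio 0.74, 0.49 to 1.00), for Serpinb9 itself at 399.6 and 544.9 CPM (0.45, 0.23 to 0.67), and for Srgn, the proteoglycan that packs granules, at 872 and 1294 CPM (0.57, 0.42 to 0.72). The adaptors Hcst, which carries the NKG2D signal, and Tyrobp were near level, with log2 ratios of -0.06 (-0.24 to 0.12) and 0.08 (-0.02 to 0.19). The granzymes Gzmc, Gzmd, Gzme, Gzmf, Gzmg and Gzmn were at 0 and Gzmm at 2 and 3 UMIs.

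The CD8 T-like sub-cluster carried Nkg7 but almost no granzyme. It was led by Cd8b1, Cd8a, Dapl1 and Ccr9, and does not stand for all T cells with a Cd8a or Cd8b1 UMI, which are described below. A UMI of Nkg7 was present in 83.5% and 80.0% of saline and NP cells, at 431 CPM (278 UMIs) and 435 CPM (207 UMIs), a log2 ratio of 0.01 (-0.25 to 0.28). Gzma had 0 saline and 2 NP UMIs, Gzmb 0 and 1, and Gzmk and Fasl 0 in both, where 0 of 85 and 0 of 60 cells allow shares of cells with a UMI of up to 3.53% and 5.00%. No cell held Gzma and Gzmb together. Prf1 was found in 23.5% and 26.7% of cells, at 43.4 CPM (28 UMIs) and 42.0 CPM (20 UMIs), a log2 ratio of -0.05 (-0.95 to 0.83). Klrd1 stood at 130 CPM (84 UMIs) and 111 CPM (53 UMIs), a log2 ratio of -0.23 (-0.75 to 0.29), while Klrk1 had 10 and 6 UMIs and Tnfsf10 8 and 7. None of the 3 genes with enough UMIs differed 2-fold, beside 2.35% of genes at least 2-fold higher and 4.27% at least 2-fold lower in this class. Of the 15 pathway genes measured there, 0 differed 2-fold with an interval that excluded 0.

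The picture changed when T cells were gated by a UMI of Cd8a or Cd8b1 instead of by sub-cluster, which gave 107 saline and 101 NP cells. Gzma then had 11 UMIs in 3 saline cells and 469 UMIs in 11 NP cells (12.8 and 488 CPM), Gzmb 9 and 30 UMIs, and Fasl 6 and 25 UMIs with a log2 ratio of 1.89 (0.57 to 3.47). The background in this gate was 6.36% of genes at least 2-fold higher and 2.21% at least 2-fold lower. In the NP library 222, 176 and 47 of the 469 Gzma UMIs lay in 3 cells, and 5 of the 11 Gzma-holding cells carried at least 2 NK markers. The gate took 7 saline and 17 NP cells from the mixed T sub-cluster and 8 and 20 from the T cells with genes of other classes. Nkg7 in the gate was 457 and 559 CPM (0.29, 0.10 to 0.48) and Prf1 47.8 and 41.6 CPM (-0.20, -0.87 to 0.46). Of the 25 pathway genes measured in the gate, 6 were 2-fold higher and 0 lower with an interval that excluded 0. They were Serpinb9 (8 and 32 UMIs, log2 ratio 1.84, 0.69 to 3.16), the adaptor Tyrobp (147 and 499 UMIs, 1.60, 1.33 to 1.87), Gzmm (7 and 21 UMIs, 1.42), Lamp2 (24 and 69 UMIs, 1.36), Serpinb6b (7 and 20 UMIs, 1.35) and Ctsc, the protease that activates granzymes (58 and 150 UMIs, 1.21, 0.76 to 1.67). In T cells gated by a UMI of Cd4 instead, 24 pathway genes were measured, and 0 were 2-fold higher with an interval that excluded 0. The 5 that were 2-fold lower were Lamp2, Cd63, Stx11, Lyst and Tyrobp, so Lamp2 and Tyrobp went the other way there. Over all genes in the Cd4 gate, 2.46% were at least 2-fold higher and 5.36% lower. The Cd4 gate took 29 saline and 7 NP cells from the T cells with genes of other classes. The part of doublets and of NK-like cells in these gated values was not tested.

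CD4 T-like cells held few UMIs of any of the 9 genes. Nkg7 was found in 2.16% and 2.97% of them (44 and 35 UMIs) and Gzmb in 2.52% and 1.98% (28 and 23 UMIs, of which 17 and 20 lay in 1 cell each). Prf1 was spread more widely, in 10.4% and 13.4% of cells at 19.5 CPM (33 UMIs) and 27.2 CPM (34 UMIs), a log2 ratio of 0.48 (-0.26 to 1.21), where 1.08% and 0.842% of B-like cells held it. Fasl had 11 UMIs in 9 saline cells and 17 UMIs in 14 NP cells, a log2 ratio of 1.06 (-0.12 to 2.30). It was the only 1 of the 6 genes with at least 20 UMIs to differ 2-fold, against 1.65% of genes higher and 2.27% lower in this class, and its interval, like the other 5, spanned 0. With CD4 T cells gated by a UMI of Cd4 instead, the Fasl log2 ratio was -0.55. Gzma in that gate had 67 UMIs in 4 saline cells, 64 of them in 1 cell, and 1 UMI in NP cells. Without the highest cell of each library 3 and 0 Gzma UMIs remained there. The ratios of all 6 genes in the CD4 T-like class, Prf1 and Tnfsf10 included, changed sign under at least 1 of the settings tried, with Prf1 between -0.37 and 1.60.

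Over all T and innate lymphoid cells together, 512 saline and 424 NP cells, Nkg7 was at 159 CPM (572 UMIs) and 234 CPM (739 UMIs), a log2 ratio of 0.56 (0.40 to 0.72). Fasl was at 11.7 and 19.0 CPM (42 and 60 UMIs, log2 ratio 0.70, 0.11 to 1.31) and Klrk1 at 13.3 and 22.1 CPM (48 and 70 UMIs, 0.73, 0.18 to 1.29). Thinned to 1000 UMIs per cell, these log2 ratios were -0.24 for Fasl, a change of sign, and 1.86 for Klrk1. Gzma was the only 1 of the 9 to differ 2-fold, with 86 and 559 UMIs, where 2.93% of genes were higher and 1.78% lower by that much. These UMIs were concentrated, with 64 of the 86 saline UMIs in 1 cell and 222, 176 and 86 of the 559 NP UMIs in 3 cells, and without the highest cell of each library 22 and 337 UMIs remained (log2 ratio 4.12, from 2.89 with it). The mixed T sub-cluster held 79 of the 86 and 494 of the 559 Gzma UMIs, 179 and 393 Nkg7 UMIs, and 27 and 31 Fasl UMIs. Within that sub-cluster Nkg7 was at 602 and 708 CPM (0.23, -0.03 to 0.50) and Fasl at 90.8 and 55.8 CPM (-0.70, -1.49 to 0.10). Without it, in 463 saline and 350 NP cells, the log2 ratio was 0.16 (-0.06 to 0.37) for Nkg7, -0.32 (-1.50 to 0.80) for Klrk1, 1.29 (0.35 to 2.30) for Fasl on 15 and 29 UMIs, and 3.56 (2.43 to 4.93) for Gzma on 7 and 65 UMIs, of which 47 lay in 1 cell. The leading genes of the sub-cluster included Ncr1, hemoglobin genes and the proliferation genes Mki67 and Hist1h1b, and Ncr1 was found in 8.16% and 6.76% of its cells. The summed level of 5 proliferation markers in it was 43.7 CPM in saline (3 of 5 found, Birc5 and Cdk1 at 0) and 673 CPM in NP lungs (5 of 5), and that of 6 CD8 T markers was 417 CPM (5 of 6, Ccr9 at 0) and 720 CPM (6 of 6). The part of these shifts in the values above was not tested.

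Of the 42 pathway genes, 30 were measured over all T and innate lymphoid cells, and 4 were 2-fold higher and 1 was 2-fold lower with an interval that excluded 0. Over all genes, 2.93% were at least 2-fold higher and 1.78% lower, counted without the interval. The higher genes were the granzyme Gzmm (8 and 23 UMIs, log2 ratio 1.71, 0.50 to 3.08), Serpinb9 (34 and 67 UMIs, 1.16, 0.55 to 1.81), and the NKG2 chains Klrc1 (23 and 43 UMIs, 1.09, 0.33 to 1.89) and Klrc2 (17 and 32 UMIs, 1.10, 0.21 to 2.04). The lower gene was Tnfrsf10b, the mouse receptor of Tnfsf10 (26 and 7 UMIs, -1.71, -3.16 to -0.46). These ratios were not recomputed without the mixed T sub-cluster, in which Serpinb9 was also 2-fold higher. Neutrophil marker RNA summed to 21313 CPM in saline and 11132 CPM in NP cells of this pool. The part of either in these ratios was not tested.

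Tnfsf10 was an endothelial transcript in these lungs. Endothelial-like cells, 299 in saline and 1130 in NP lungs, were marked by Cdh5 in 98.3% and 98.2% of them. Tnfsf10 stood there at 310.6 CPM (443 UMIs) and 405.9 CPM (2215 UMIs), a log2 ratio of 0.39 (0.24 to 0.54), and was found in 65.2% and 74.8% of cells, whose median depths were 3844 and 3847 UMIs, or in 27.0% and 36.9% after thinning, beside 0.862% and 1.01% of B-like cells. The cluster led by Ptprb and Vwf, with Gpihbp1 and Plvap also among its leading genes, held 261 saline and 954 NP cells of the class. Tnfsf10 was there at 306 CPM (361 UMIs) and 427 CPM (1816 UMIs), a log2 ratio of 0.48 (0.32 to 0.65). In the cluster led by Car4 and Cyp4b1, with Ednrb and Kdr among its leading genes, it was 351 CPM (78 UMIs) and 344 CPM (379 UMIs), a log2 ratio of -0.03 (-0.39 to 0.34). The cluster led by Ccl21a and Fabp4, which holds the lymphatic genes Mmrn1 and Flt4, had 4 and 20 UMIs (168 and 188 CPM). Whether the clusters differ in their ratio was not tested.

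Pooled over all cells outside the NK, T and innate lymphoid classes, Tnfsf10 was at 7.38 and 38.4 CPM, a log2 ratio of 2.38 (2.24 to 2.51). The endothelial share of the library was 3.45% in saline and 13.6% in NP lungs, and within endothelial-like cells the Tnfsf10 log2 ratio was 0.39. A pooled ratio alone does not separate the number of cells of a type from the RNA per cell. The part of each in the pooled ratio was not tested. In that pool 3 of the 7 genes with at least 20 UMIs were at least 2-fold higher, Tnfsf10, Klrk1 (1.99 and 7.16 CPM) and Gzmb (0.734 and 7.13 CPM), as were 16.8% of all genes, with 2.01% at least 2-fold lower. The median log2 ratio was 0.91 over the 7 genes and 0.43 over all genes, and that of Gzmb was 3.28, or 1.79 without the highest cell of each library. Of the pathway genes, H2-T23, which encodes the Qa-1 molecule that CD94 receptors read, was the only 1 of 26 measured in endothelial-like cells to differ 2-fold with an interval that excluded 0, at 689 CPM (983 UMIs) and 1400 CPM (7640 UMIs), a log2 ratio of 1.02 (0.93 to 1.12), where 2.94% of all genes were higher and 1.89% lower by that much. In NK-like cells H2-T23 was at 274 and 407 CPM (0.57, 0.31 to 0.83). The death receptors Fas and Tnfrsf10b had endothelial log2 ratios of 0.09 (-0.15 to 0.34) and 0.16 (-0.58 to 0.96).

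**Figure D5:**
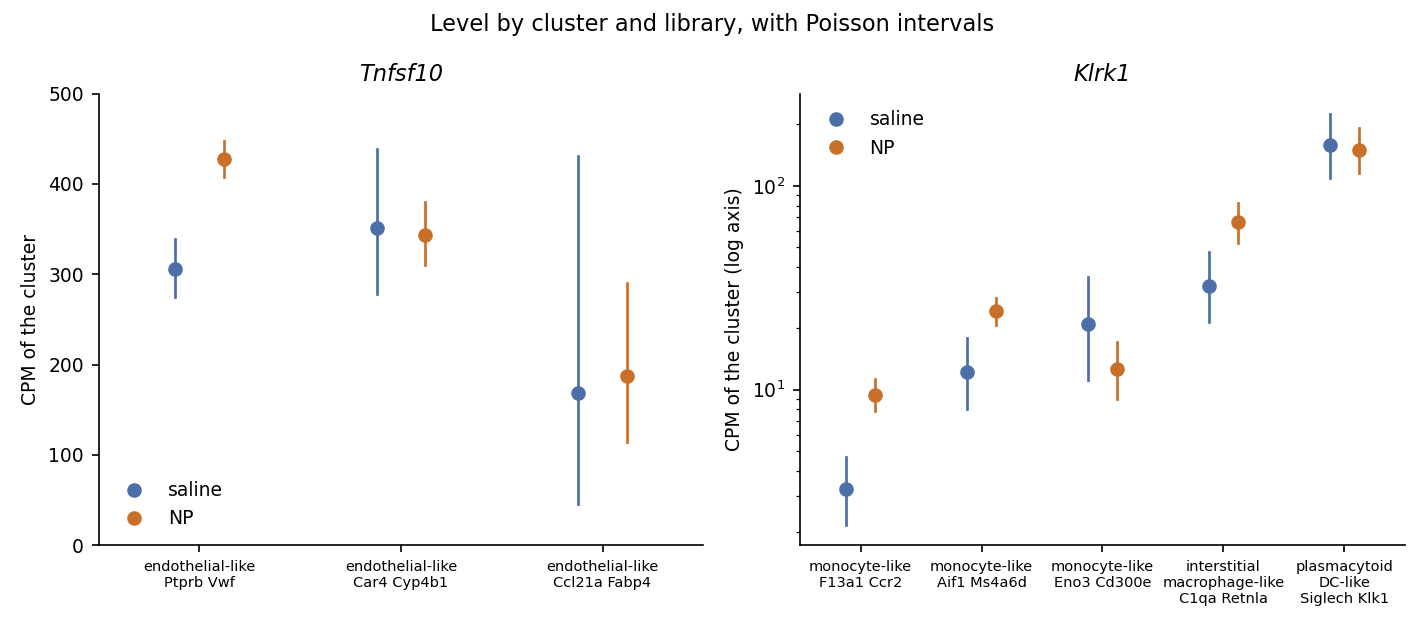
Left, CPM of Tnfsf10 in the 3 endothelial-like clusters, and right, CPM of Klrk1 (log axis) in monocyte-like, interstitial macrophage-like and plasmacytoid DC-like clusters, each named by its leading genes, for saline (blue) and NP (orange) with Poisson 95% intervals. The Tnfsf10 intervals were apart only in the Ptprb and Vwf cluster (306 and 427 CPM), and the Klrk1 intervals were apart in the F13a1 and Ccr2 cluster (3.24 and 9.46 CPM), in the Aif1 cluster (12.2 and 24.3 CPM) and in interstitial macrophage-like cells.

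Klrk1 was also detected, at a low level, in monocyte-like and interstitial macrophage-like cells, and it was higher in the NP library in the latter and in 2 of 3 monocyte-like clusters. Alveolar macrophage-like cells, 166 in saline and 222 in NP lungs, had 0 Klrk1 UMIs. Monocyte-like cells, 783 in saline and 1511 in NP lungs, held 68 Klrk1 UMIs (5.82 CPM) in saline and 323 UMIs (14.4 CPM) in NP lungs, a log2 ratio of 1.31 (0.93 to 1.71). The UMIs were spread over 56 and 206 cells with at most 3 and 8 in 1 cell, and 7.15% and 13.6% of cells held one. Of B-like cells, which are shallower, 1 of 464 and 0 of 594 held one, the latter allowing up to 0.505% with 3 cells taken as the limit. The rise was not particular to Klrk1. In monocyte-like cells all 6 of the 9 genes with at least 20 UMIs were higher in the NP library, as were 44.8% of all genes. Of these 6 genes 4 were at least 2-fold higher, where 4.13% of all genes were at least 2-fold higher and 1.51% lower. Tnfsf10 had a log2 ratio of 1.38, and 86 of the 128 NP Gzma UMIs lay in 1 cell. Free RNA, from barcodes under 50 UMIs, held Tnfsf10 at 4.37 CPM in saline and 29.2 CPM in NP lungs. Its part in the Tnfsf10 ratio of monocyte-like cells was not tested. Ncr1 was found in 1 saline and 6 NP monocyte-like cells and Cd3e in 0 and 5. Of 17 NK markers, 7 were found in saline and 12 in NP cells, at a summed 10.3 and 14.6 CPM. Of 13 T markers, 8 and 11 were found, at a summed 1.71 and 4.60 CPM. The part of lymphocyte RNA in the Klrk1 ratio was not tested. Barcodes under 50 UMIs, a measure of free RNA, held Klrk1 at 6.67 CPM in saline and 8.37 CPM in NP lungs. The monocyte-like level lay below that in saline and above it in NP lungs, and free RNA was not subtracted there. Thinned to 1000 UMIs the Klrk1 log2 ratio was 0.24. The share of cells with Klrk1 was then 0.894% and 0.927%, so few UMIs were left, and thinned to 2000 UMIs it was 1.28% and 2.65%.

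By cluster, Klrk1 was at 3.24 CPM (29 UMIs) and 9.46 CPM (117 UMIs) in the Ccr2-high monocyte-like cells led by F13a1, a log2 ratio of 1.54 (0.95 to 2.18). The saline value there lay below the 6.67 CPM of free RNA, and the NP value just above its 8.37 CPM. Klrk1 was at 12.2 CPM (26 UMIs) and 24.3 CPM (166 UMIs) in those led by Aif1 with H2-Aa, a log2 ratio of 0.99 (0.39 to 1.64). In the cluster led by Eno3 and Cd300e, which holds the patrolling monocyte gene Treml4, it was 20.9 CPM (13 UMIs) and 12.6 CPM (40 UMIs), a log2 ratio of -0.73 (-1.66 to 0.30). Interstitial macrophage-like cells had 27 UMIs (32.4 CPM) and 81 UMIs (66.3 CPM), a log2 ratio of 1.03 (0.39 to 1.72). This class was led by C1qa, Retnla and C1qb, with H2-Aa and H2-Ab1 also leading. Its mean marker score was 4.23 for interstitial macrophages and, next, 2.08 for dendritic cells. No class here was named for dendritic cells other than plasmacytoid ones, and whether this class holds some was not tested. Klrd1 in the same class had 27 and 21 UMIs, with 12 of the 27 in 1 cell, a log2 ratio of -0.92 (-1.81 to -0.04) that was -0.30 without the highest cell of each library.

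Plasmacytoid dendritic cell (DC)-like cells, 18 and 34 in number, carried both receptors, while the other 7 genes had 0 UMIs in saline and 1, of Gzmb, in NP cells. Klrk1 was present in 61.1% and 76.5% of the cells, at 159 CPM (32 UMIs) and 150 CPM (62 UMIs), a log2 ratio of -0.09 (-0.72 to 0.58). Klrd1 was found in 72.2% and 79.4% of them, at 284 CPM (57 UMIs) and 201 CPM (83 UMIs), a log2 ratio of -0.50 with an interval that reached just above 0. The plasmacytoid marker Siglech was in every cell and Ncr1 and Cd3e in none. With 3 cells taken as the limit, 0 of 18 and 0 of 34 cells allow shares of up to 16.7% and 8.82%, which are not exact bounds.

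Outside these classes most cells with Gzma held 1 UMI of it, while a few cells held most of its UMIs. In cells other than NK, T and innate lymphoid cells, Gzma was found in 79 saline cells (294 UMIs) and 110 NP cells (514 UMIs), of which 75 and 102 held 1 UMI. The 3 saline and 6 NP cells with at least 10 Gzma UMIs held 73.8% and 79.4% of these UMIs, and each of them carried at least 2 NK markers. Barcodes under 50 UMIs, a measure of free RNA, held Gzma at 158 and 206 CPM, Nkg7 at 48.0 and 65.6 CPM, and Prf1 at 7.58 and 19.7 CPM. In neutrophil-like cells 4 of the 9 genes had at least 20 UMIs and all 4 were at least 2-fold higher in the NP library, as were 4.05% of all genes there, with 2.46% lower. They were Gzma with 51 and 126 UMIs, 92 of the latter in 1 cell, Nkg7 with 82 and 91 UMIs (1.69 and 3.76 CPM, log2 ratio 1.16, 0.71 to 1.61, and 1.84 after thinning), Tnfsf10 with 10 and 19, and Klrd1 with 9 and 14. Each CPM there lay below that in the free RNA of the same library.

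Basophil or mast cell-like cells, 21 in saline and 39 in NP lungs, held Nkg7 at 172 CPM (30 UMIs) and 134 CPM (36 UMIs). Gzmb was found in 3 saline cells (11 UMIs) and 11 NP cells (435 UMIs), and 365 of the NP UMIs lay in 1 cell. Without the highest cell of each library, 2 and 70 UMIs remained. None of the 14 Gzmb-holding cells had a UMI of Ncr1 or Gzma, while each held the basophil protease gene Mcpt8. Prss34, another marker of the class, was not in all of them. The cell with 365 Gzmb UMIs held 60 UMIs of Mcpt8, 45 of Cpa3 and 0 of Prss34, and others of these cells also had 0 of Prss34.

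The 9 genes were also compared by their pattern over 26 profiles, the 13 classes with at least 30 cells in each library, using Pearson r of log2(CPM + 1) over 11828 genes. Profiles share libraries, depth and free RNA, so r is a description. Gzma was most like Ncr1 (0.97) and Gzmb (0.92), Gzmb most like Fasl (0.97) and Ncr1 (0.95), and Fasl most like Gzmb (0.97) and Klrc1 (0.95). Nkg7 was most like Ctsw (0.95) and Cst7 (0.94), Prf1 like Samd3 and Eomes (both 0.92), and Gzmk like Ifng (0.92) and Klrc2 (0.91). Klrk1 was most like Klrb1f (0.93) and Ccl5 (0.91), and Klrd1 like Cst7 and Samd3 (both 0.91). Tnfsf10 stood apart, most like Impdh1 (0.88) and Inafm2 (0.85), with r between -0.06 and 0.31 to the other 8 genes.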

How the data were processed

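Lung cells were measured by droplet single-cell RNA sequencing, 1 library per condition. The authors' deposited matrices hold UMI counts per gene and barcode, unfiltered. The submitters' processing notes name Cell Ranger 6.0, bcl2fastq and mm10, whereas the file headers name another Cell Ranger release. Total counts were 91168129 (saline) and 90081747 (NP). Barcodes with 500 to 5000 genes and under 7.5% mitochondrial counts were clustered and named from marker lists. Clustering used scikit-learn 1.9.0 and leidenalg 0.10.2, with 2000 variable genes without the 9 genes, 30 components and Leiden resolution 1.0. T cells were sub-clustered. Doublets were left in, since the caller (Scrublet in scanpy 1.11.5) set no usable threshold in the saline library, and their removal was an alternative. UMIs were pooled per class and given as CPM with exact Poisson, Clopper-Pearson and conditional binomial intervals. No test was run, as cells are not replicates. Ratios needed at least 20 UMIs over both libraries, and 2-fold was the size for naming pathway genes. The code was tested on simulated data. The members and lists were chosen with earlier results of these data known. Gene positions came from GENCODE M21, which held 99.8% of the file's genes. No column of other samples was present.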

Additional observations from a re-analysis of the deposited data

How the results depend on the processing

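Each group was 1 library, so depth, batch and treatment cannot be told apart. Across changes of the cell filters, clustering resolution, doublet removal, thinning, free RNA subtraction and scaling, 81 of 86 medians and class shares stayed within their interval. For a class share this was its counting interval. For a median it ran from the median lower to the median upper bound of its genes, which does not measure the error of the median. The median log2 ratio of the genes in NK-like cells, 0.01, was 0.16 with free RNA subtracted and 0.19 with every cell thinned to 1000 UMIs. That in other cells, 0.91, was 0.65 with a mitochondrial limit of 10%, 0.48 when scaled by the median ratio of all genes and 1.48 after thinning. Of 550 values for single genes in a class, 491 stayed within their counting interval, but the share differed by setting. With every cell thinned to 1000 UMIs, 17 of 35 stayed. With CD4 and CD8 T cells gated by UMI 5 of 9 stayed, and without the mixed T sub-cluster 5 of 9. Among the 550, the sign changed in 45 values of 18 results, 22 of them in CD4 T-like cells, and the reported interval spanned 0 in all but 6. Over all T and innate lymphoid cells, Fasl was -0.24 after thinning, and Klrk1 was -0.32 and Klrd1 -0.042 without the mixed T sub-cluster. Nkg7 in other cells was -0.075 after scaling, and Klrd1 there was -0.026 after scaling and -0.13 after thinning. The cause was not tested. Prf1 in NK-like cells ranged from 0.41 to 0.85, Tnfsf10 in endothelial-like cells from 0.35 to 0.60 and Klrk1 in monocyte-like cells from 0.24 (thinned) to 1.40. The log2 ratio of the NK-like share of cells ranged from 0.12 to 0.30. A shared doublet threshold, leaving out the highest cell and leaving out the mixed T sub-cluster were added after seeing the data. Free RNA was not subtracted in neutrophil-, monocyte- and interstitial macrophage-like cells, whose own transcripts scale it. No paired analysis was possible because each group has 1 library.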
